A study of Mus musculus with 6 samples.

Results

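A group of 10 transcription factors of fat cell formation was followed in cultured stromal cells of mouse visceral fat. They were Pparg, Cebpa, Cebpb, Cebpd, Ebf1, Ebf2, Zfp423, Zfp521, Klf4 and Klf15, taken by symbol from a table of 55011 genes, and all 10 were found, each in 1 row. The cells carried the genotype label Il33-EGFP-, that is, they were negative for a green fluorescent reporter of the cytokine gene Il33. They were treated in culture for 3 days with phosphate-buffered saline (PBS, 3 libraries) or with irisin and the chaperone HSP90α, labelled Irisin/HSP90α, at 10 nM (3 libraries, called irisin here). Irisin is a hormone shed from a muscle membrane protein. Both groups thus share tissue, reporter state and culture time. The sources used here do not give whether the PBS wells held HSP90α, nor the strain, sex, age and number of the mice. The p-values therefore measure the spread between these libraries, which may be technical.

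Fat cells form from stromal precursors through a relay of transcription factors. In textbook accounts Zfp423 and the early B cell factors Ebf1 and Ebf2 mark cells committed to the lineage, and Zfp521 opposes them. On a hormonal stimulus Klf4, Cebpb and Cebpd come on first and switch on Pparg and Cebpa, which maintain one another and the genes of the mature fat cell. Klf15 acts late and is also induced by glucocorticoids. PPARγ, the product of Pparg, binds DNA together with a retinoid X receptor.

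Libraries held 5271309 to 6745799 counts. In a principal component analysis, component 1 (47.1% of variance) split the treatments, whereas component 2 (23.9%) placed PBS replicate 3 and irisin replicate 1 at a distance from the remaining 4. Omitting both, a choice made after seeing the data, called 1680 genes against 912 on the most alike libraries. Pparg (log2 fold change -0.84, adjusted p = 3.50e-10) and Cebpa (-0.74, adjusted p = 0.000183) fell there too. Ebf1 (-0.24, adjusted p = 0.00234) and Ebf2 (-0.35, adjusted p = 0.00458), which did not pass with all 6 libraries, were then called lower as well. Genes of the stromal identity, such as Pdgfra, Col1a1 and Dcn, were abundant in all 6 libraries.

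Of the 10 factors, Pparg and Cebpa fell with irisin, and no other factor passed the test. Pparg was 44.8% lower and Cebpa 38.6% lower. Ebf1, Ebf2, Zfp423 and Zfp521 had fitted values between 0.83 and 0.87 of those in PBS, and none of these 4 passed. Of the 10, 9 had enough reads to be tested, and Cebpb had not. Levels are CPM, the read counts of a gene per 1000000 counts of its library after scaling, with the standard deviation (SD) over 3 libraries. Log2 fold changes are irisin against PBS with their standard error (SE), and adjusted p-values (Benjamini-Hochberg) cover the 12296 genes that edgeR tested by quasi-likelihood, at a threshold of 0.05. In that fit 7.42% of all genes passed, 3.22% as lower and 4.20% as higher. The median log2 fold change was -0.25 over the 9 tested factors and -0.01 over all genes.

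Both factors that fell are shown with promoter sequence, 250 bases before to 50 bases after an annotated start, because C/EBP proteins are known activators of Pparg and Cebpa. The sequences are those of RefSeq on build GRCm38.p6. Windows of 7 of the 10 factors were searched for motifs, and Cebpd, Ebf2 and Zfp521 were not searched. Capitals mark matches on either strand to the C/EBP motif TTNNGCAA or to the TATA box TATAAA. The first is the plus strand of chr6:115421816-115422115, around the internal start of Pparg that gives the fat-cell isoform PPARγ2.
Pparg, internal start: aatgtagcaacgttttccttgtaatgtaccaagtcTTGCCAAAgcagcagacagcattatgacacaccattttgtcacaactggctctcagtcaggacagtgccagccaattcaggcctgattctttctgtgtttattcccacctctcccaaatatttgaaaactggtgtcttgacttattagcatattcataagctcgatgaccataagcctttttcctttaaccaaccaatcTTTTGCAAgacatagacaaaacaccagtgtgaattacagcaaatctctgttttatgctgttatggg
The next is the window of the most upstream Pparg start, chr6:115360894-115361193 on the plus strand, which gives the more widely expressed PPARγ1.
Pparg, upstream start: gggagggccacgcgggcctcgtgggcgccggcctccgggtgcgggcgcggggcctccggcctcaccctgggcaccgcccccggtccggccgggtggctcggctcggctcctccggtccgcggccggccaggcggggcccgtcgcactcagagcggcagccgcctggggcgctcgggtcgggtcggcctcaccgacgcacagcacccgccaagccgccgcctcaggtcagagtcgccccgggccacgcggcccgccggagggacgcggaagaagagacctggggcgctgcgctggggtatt
The third is the Cebpa window, chr7:35119043-35119342 on the plus strand.
Cebpa: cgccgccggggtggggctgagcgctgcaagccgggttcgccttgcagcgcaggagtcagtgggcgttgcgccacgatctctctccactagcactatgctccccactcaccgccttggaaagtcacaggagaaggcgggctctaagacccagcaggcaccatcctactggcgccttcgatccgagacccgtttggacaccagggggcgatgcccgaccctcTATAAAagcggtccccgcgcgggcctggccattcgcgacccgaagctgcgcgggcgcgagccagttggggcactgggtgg
The window of the internal Pparg start held 2 matches to the C/EBP motif, from -215 to -208 and from -16 to -9 relative to the start. The upstream Pparg window and the Cebpa window held no exact match to it, and the Cebpa window held a TATA box from -30 to -25. Among all 32851 RefSeq windows of 300 bases, 10.8% held a C/EBP match and 13.6% a TATA box match. The internal Pparg window was 40.3% G and C, against 80.3% for the upstream one. Klf15 had 3 matches to the E-box CACGTG in its window, a motif found in 7.15% of windows, and the first Zfp423 window had 2 C/EBP matches. The upstream Pparg window held the PPAR half-site AGGTCA from -28 to -23, a motif of 16.3% of windows. Another Pparg window, chr6:115362099-115362398, held that half-site from -9 to -4 and a TATA box match on the minus strand from -29 to -24. An NF-κB motif (482 of all windows) and the glucocorticoid receptor half-site AGAACA (6233 of all windows) had no match in the 11 windows of these 7 factors. A match is a stretch of letters and was not tested as a binding site. Sites that depart from a motif at a fixed base were not counted, so a window without a match may still hold one. The counts are sums over each gene, so reads from either Pparg start were not told apart.

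Pparg, the master regulator of fat cell formation, lies on chromosome 6 from 115360951 to 115490399 (GRCm38, the build called mm10). It stood at 149.1, 139.6 and 170.8 CPM in PBS replicates 1, 2 and 3 and at 92.97, 78.85 and 81.55 CPM in irisin replicates 1, 2 and 3. The lowest PBS library was thus well above the highest irisin library. The fall was 1.81-fold (log2 fold change -0.86 ± 0.11 SE, adjusted p = 0.000156), with a 95% interval of 0.471 to 0.647 for the fitted ratio of irisin to PBS. PBS replicate 3 had the highest level, and without it the log2 fold change was -0.77. Groups whose values do not overlap were common, since 11.5% of all tested genes had their 3 irisin values below their 3 PBS values.

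Cebpa, which encodes C/EBPα and lies on chromosome 7 from 35119293 to 35121928, stood at 39.19, 36.92 and 38.66 CPM in PBS and at 24.96, 21.26 and 24.04 CPM in irisin. The PBS values lay close together, at a coefficient of variation of 3.10%, and the groups did not overlap. The fall was 1.63-fold (log2 fold change -0.70 ± 0.12 SE, adjusted p = 0.00261). Levels per length, in CPM per kilobase of annotated exon, give the balance of both factors within a library. The ratio of Cebpa to Pparg on that scale was 0.295, 0.296 and 0.254 in PBS and 0.301, 0.302 and 0.330 in irisin, so the groups did not overlap but lay close, and both factors had come down by similar shares. Exons of the antisense gene Gm45091 share 51 bases with Cebpa, and reads there cannot be assigned without knowing whether counting used strand. RNA was taken from whole wells, so fewer cells that express a gene and less of its RNA per cell cannot be told apart.

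**Figure D1:**
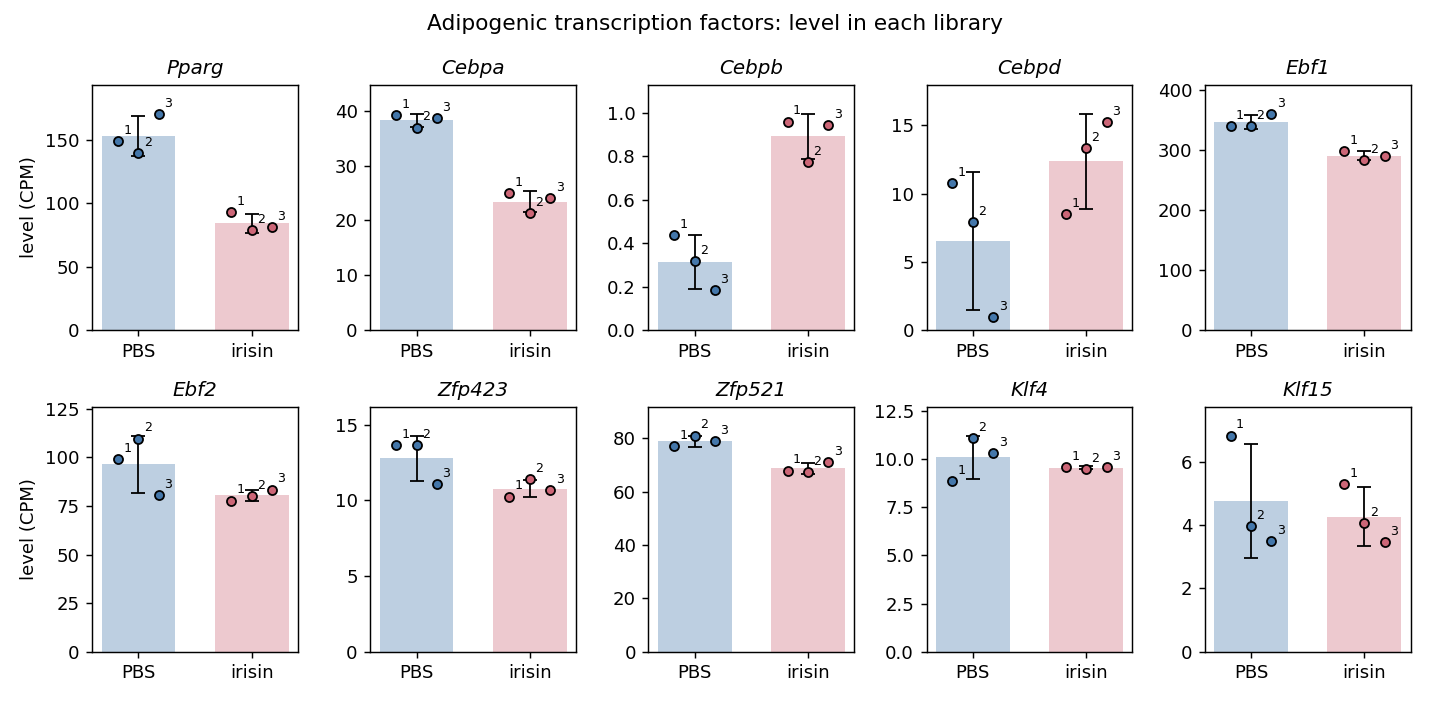
Level of each of the 10 factors in CPM (vertical axis, linear from 0, its own scale for each gene) in the 3 PBS and 3 irisin libraries. Points are libraries with their replicate number, bars are means and error bars are 1 SD. Pparg and Cebpa are lower in all 3 irisin libraries, and Cebpd varies most within PBS, from 0.921 to 10.7 CPM.

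The early C/EBP factors were at low levels. Cebpd, which encodes C/EBPδ (chromosome 16, 15887286 to 15891031), stood at 10.74, 7.923 and 0.921 CPM in PBS and at 8.481, 13.34 and 15.24 CPM in irisin. PBS replicate 3, with 5 counts against 50 to 74 in the other PBS libraries, stood far below the rest, and the groups overlapped. The fitted log2 fold change was 0.87 ± 0.64 SE (adjusted p = 0.584), with a 95% interval of 0.622 to 5.39 for the ratio. Without PBS replicate 3 it was 0.40 (adjusted p = 0.402), and without PBS replicate 1 it was 1.43 (0.405).

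Cebpb, which encodes C/EBPβ (chromosome 2, 167688915 to 167690418), had only 3, 2 and 1 counts in PBS and 6, 4 and 6 in irisin. That is 6 counts in all against 16, too few to pass the filter on low counts. Fitted with no such filter, it had a log2 fold change of 1.42 ± 0.87 SE (adjusted p = 0.653). In CPM, Cebpb stood at 0.435, 0.317 and 0.184 in PBS and at 0.960, 0.773 and 0.943 in irisin, so the groups did not overlap. Of all tested genes, 12.1% had their 3 irisin values above their 3 PBS values. A change of Cebpb was not detectable at this depth. Cebpb is a gene of 1 exon whose transcript is 67.2% G and C, the highest share of the 10. Of the 37 protein-coding genes with a 1-exon longest transcript of at least 65% G and C, 2 passed the filter (5.41%), against 204 of 618 (33.0%) where that share was under 45%. The part of G and C content in the low count was not tested. Exons of Tmem189 on the opposite strand overlap 312 of its bases, and exons of Spidr overlap 562 bases of Cebpd. The sources used here do not say whether counting used strand, so the values of both genes are uncertain to that extent.

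The EBF factors, which act in precursor commitment and later beside PPARγ, were among the most abundant of the group. Ebf1 (chromosome 11, 44617317 to 45008091) stood at 339.5, 339.4 and 359.7 CPM in PBS and at 298.1, 282.7 and 289.6 CPM in irisin. Its groups did not overlap and varied little, at 3.39% and 2.66%. The difference was small and missed the threshold (log2 fold change -0.25 ± 0.08 SE, adjusted p = 0.0712). Its unadjusted 95% interval was 0.746 to 0.942 for the ratio of irisin to PBS. Ebf1 passed as lower with libraries scaled by total counts alone (adjusted p = 0.0223) and with limma-voom (0.0267).

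Ebf2, a factor known for brown and beige precursors (chromosome 14, 67233292 to 67430918), stood at 99.12, 109.7 and 80.64 CPM in PBS and at 77.77, 80.01 and 83.43 CPM in irisin. PBS replicate 3 lay among the irisin libraries and apart from the other PBS libraries. The log2 fold change was -0.26 ± 0.12 SE (adjusted p = 0.242). Without PBS replicate 3 it was -0.37 and passed (adjusted p = 0.0150), and without PBS replicate 2 it was -0.16 (0.599). Ebf2 also passed with limma-voom (0.0497). Exons of an antisense gene on the opposite strand overlap 424 bases of Ebf2, which adds the same uncertainty as for Cebpd.

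Zfp423 and Zfp521 are related zinc finger proteins with opposed roles, both of which bind EBF1. Zfp423, which promotes commitment (chromosome 8, 87661810 to 87959595), stood at 13.64, 13.63 and 11.05 CPM in PBS and at 10.24, 11.40 and 10.68 CPM in irisin, with 1 PBS library among the irisin values. Zfp521, which restrains it (chromosome 18, 13687013 to 13972787), stood at 76.92, 80.97 and 78.80 CPM in PBS and at 67.85, 67.25 and 71.17 CPM in irisin. Its groups did not overlap. Neither passed (log2 fold change -0.25 ± 0.17 SE, adjusted p = 0.526 for Zfp423, and -0.20 ± 0.09 SE, adjusted p = 0.291 for Zfp521). Their 95% intervals for the ratio were 0.646 to 1.09 and 0.758 to 1.00. The ratio of Zfp423 to Zfp521 per length was 0.222, 0.211 and 0.176 in PBS and 0.189, 0.213 and 0.188 in irisin, with the groups overlapping. Zfp521 was the more abundant of the pair in all 6 libraries.

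The Krüppel-like factors of the group overlapped between groups. Klf4, which is known to act upstream of Cebpb (chromosome 4, 55527143 to 55532466), stood at 8.853, 11.09 and 10.31 CPM in PBS and at 9.601, 9.470 and 9.584 CPM in irisin. The irisin values lay within the PBS range (log2 fold change -0.08 ± 0.19 SE, adjusted p = 0.901, with an interval of 0.719 to 1.25 for the ratio). Klf15 (chromosome 6, 90462576 to 90475238) had 19 to 47 counts per library, and stood at 6.821, 3.961 and 3.498 CPM in PBS and at 5.281, 4.059 and 3.457 CPM in irisin. Replicate 1 was the highest of each group. Its log2 fold change was -0.17 ± 0.32 SE (adjusted p = 0.860), and at this depth the interval of 0.549 to 1.43 leaves room for a change in either direction. The sign turned to 0.19 without PBS replicate 1, as that of Klf4 turned to 0.0015 without PBS replicate 2.

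**Figure D2:**
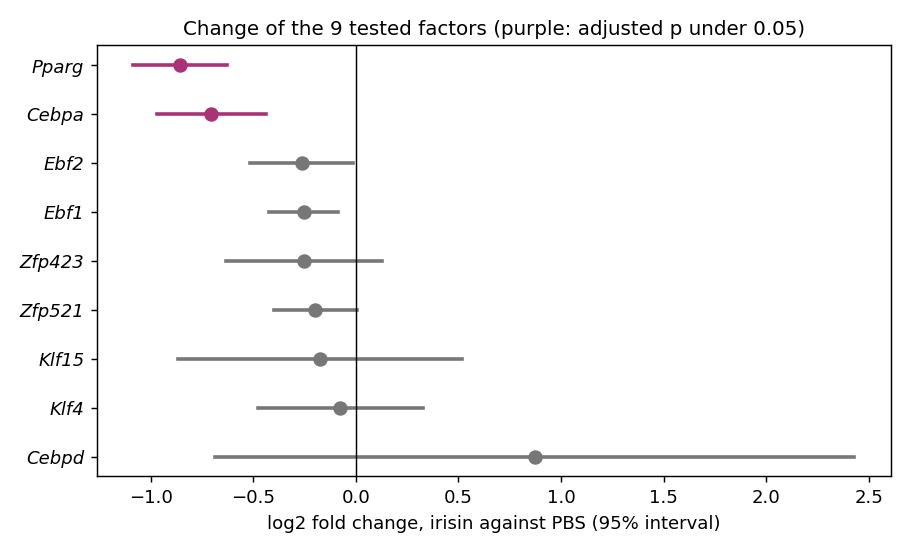
Log2 fold change of irisin against PBS (horizontal axis) for the 9 tested factors, with lines for the unadjusted 95% interval from the fit. Pparg (-0.86) and Cebpa (-0.70) are past the threshold. Ebf1, Ebf2, Zfp423 and Zfp521 lie between -0.20 and -0.26, and Cebpd has the widest interval.

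Per length, the order of the factors was led by Pparg and Ebf1. Length here is all annotated exon bases of a gene, and the order between genes rests on that choice. For Pparg these were 2953 bases against 2125 in its longest transcript, and for Ebf1 9756 against 5981. For Cebpa they were 2636 against 2626, and for Ebf2 6928 against 5204. The change of a ratio between groups does not depend on length. In PBS, Pparg (47.3 to 57.9 CPM per kilobase) was above Ebf1 (34.8 to 36.9). In irisin, Pparg (26.7 to 31.5) overlapped Ebf1 (29.0 to 30.6). The ratio of Pparg to Ebf1 was 1.45, 1.36 and 1.57 in PBS and 1.03, 0.921 and 0.930 in irisin, so the lead of Pparg was gone or nearly so in each irisin library. On this length, Cebpa overlapped Ebf2 in PBS (14.0 to 14.9 against 11.6 to 15.8), while in irisin (8.06 to 9.47) it lay below Ebf2 and Zfp521. With a shorter length for Ebf2, as in its longest transcript, Ebf2 would stand higher against Cebpa in both groups. Zfp521 followed at 10.9 to 11.5 in PBS and 9.57 to 10.1 in irisin. Klf4, Zfp423, Cebpd and Klf15 stood at or below 4.07 in every library. Of these, Zfp423, Cebpd and Klf15 overlapped their neighbours in that order in PBS, as did Cebpd with Klf4 and Zfp423 with Klf15 in irisin. Cebpb was lowest at 0.122 to 0.638.

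**Figure D3:**
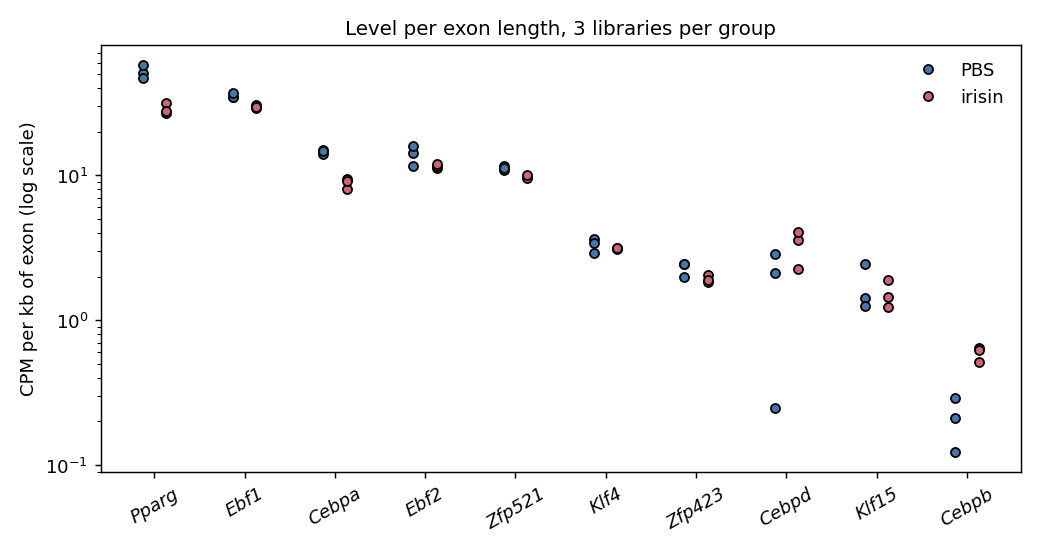
Level per length of the 10 factors (CPM per kilobase of exon, log scale) in each PBS and irisin library, ordered by the PBS mean. On this length, Pparg moves from above Ebf1 to the level of Ebf1, and Cebpb lies below 1 in all 6 libraries.

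The genes with the most similar course over the 6 libraries were found by Pearson's r of log2 CPM. In this description the difference between groups, or a single library that stands apart, weighs heavily. For Pparg they were Gpnmb (r = 0.999), Inhba (0.998) and Ebf1 (0.997), so Ebf1 had nearly the same course as Pparg at a smaller amplitude. For Ebf1 they were Gpnmb (0.998), Kazald1 (0.998) and Pparg. For Cebpa they were Cd34, a surface protein of progenitor cells, with Mthfd1 and Sult1e1 (0.995 each). Ebf2 was nearest to Ucp2 (0.994), Wnt5a (0.993) and Lsp1 (0.992), and Zfp521 to Mcm7 (0.993), Spon2 (0.991) and Pwwp2b (0.988). Zfp423 was nearest to Mical2 (0.995), Cdc42se1 (0.992) and Mknk2 (0.989), and Cebpd to Smtn (0.997), Cdc42ep2 (0.996) and Ddah2 (0.995). The genes nearest to Cebpd differed little between groups (log2 fold change 0.11 to 0.20), and Cebpd itself stood far lower in PBS replicate 3. Klf4 was nearest to Cdk12 (0.987), Nqo1 (0.957) and Tardbp (0.956), and Klf15 to Pdik1l (0.968), Repin1 (0.956) and Rpusd1 (0.943).

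No relative of these factors passed the test, which 7.42% of all tested genes did. Of 22 other C/EBP, EBF, KLF and PPAR genes, 13 were tested and 0 passed with edgeR at an adjusted p of 0.05, with a median log2 fold change of 0.00. At an unadjusted p under 0.05 it was 2, Klf6 and Klf13. Klf6 stood at 219, 221 and 256 CPM in PBS and at 211, 168 and 178 CPM in irisin (log2 fold change -0.32 ± 0.10 SE, adjusted p = 0.0937). Klf13 stood at 102, 97.4 and 143 CPM in PBS and at 90.7, 75.8 and 74.5 CPM in irisin (-0.51 ± 0.15 SE, adjusted p = 0.0604). Klf13 passed with DESeq2 (adjusted p = 0.0269), the only one of the 13 that did, and both passed with total counts alone, with limma-voom and with no low-count filter. Klf6 also passed without irisin replicate 1, and Klf13 without PBS replicate 2. Without PBS replicate 3, its highest library, Klf13 came to -0.31 (adjusted p = 0.0709).

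Against 3.22% of all tested genes called lower, partners of PPARγ had 2 falls among 18 tested. They were Ncoa1, a coactivator of nuclear receptors, from 40.2 ± 3.03 to 27.6 ± 1.60 CPM (log2 fold change -0.55 ± 0.12 SE, adjusted p = 0.0131), and Rxra, the retinoid X receptor that pairs with PPARγ, from 70.9 ± 4.45 to 54.4 ± 4.36 CPM (-0.38 ± 0.11 SE, adjusted p = 0.0486). The list's median was 0.01, and the most abundant members that did not pass were Kmt2d, a histone methyltransferase (0.04 ± 0.09 SE), and Med1, a Mediator subunit (0.13 ± 0.10 SE). Rxra lost its call without any 1 of PBS replicates 1 and 2 and irisin replicates 1, 2 and 3 (adjusted p 0.0741 to 0.188) and with DESeq2 (0.0786). Ncoa1 lost its call without PBS replicate 1 or 2 or irisin replicate 3 (0.0617 to 0.0836).

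Among 19 tested factors known to promote fat cell formation, 3 fell and 1 rose (median -0.10). Over all tested genes, 3.22% were called lower and 4.20% higher. Egr2, an early zinc finger factor that acts upstream of Cebpb, had the largest fall, from 47.2, 66.2 and 46.0 CPM in PBS to 30.7, 23.6 and 20.9 CPM in irisin (log2 fold change -1.08 ± 0.18 SE, adjusted p = 0.00191). Zeb1 (-0.49 ± 0.11 SE, adjusted p = 0.0171) and Nfia, a factor that acts with Pparg in brown fat (-0.38 ± 0.09 SE, adjusted p = 0.0215), fell less. Id2, an inhibitor of basic helix-loop-helix factors, rose from 88.5 ± 8.87 to 135 ± 21.4 CPM (0.61 ± 0.12 SE, adjusted p = 0.00647). The most abundant members that did not pass were Nfib (0.17 ± 0.11 SE) and Srebf1, the regulator of lipid synthesis (-0.10 ± 0.13 SE). When PBS replicate 1, irisin replicate 2 or irisin replicate 3 was left out, neither Zeb1 nor Nfia passed (adjusted p 0.0911 to 0.142), which left 1 fall. Nfib passed as higher without PBS replicate 3 (0.0284).

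Factors known to restrain the process went both ways, with 2 rises and 3 falls among 27 tested (median 0.09). The shares over all tested genes were 4.20% higher and 3.22% lower. Runx1, a factor of blood and mesenchyme, rose from 44.6, 38.5 and 42.0 CPM to 66.6, 73.4 and 67.6 CPM (log2 fold change 0.73 ± 0.11 SE, adjusted p = 0.000683). Trib3, a pseudokinase, rose by 0.44 ± 0.12 SE (adjusted p = 0.0470), a call lost without any 1 of the 6 libraries (0.0671 to 0.151) and with DESeq2 (0.105). Tsc22d3, a glucocorticoid-induced gene, fell by 0.65 on the log2 scale (± 0.12 SE, adjusted p = 0.00313) and Tcf7l2, a Wnt effector, by 0.47 (± 0.10 SE, adjusted p = 0.0110). Tcf7l2 lost its call without irisin replicate 2 or 3 (0.0760 to 0.0817). Irf4, a repressor of fat cell formation that also drives lipolysis genes, had 21, 11 and 16 counts in PBS and 1, 1 and 4 in irisin (-2.86 ± 0.56 SE, adjusted p = 0.00642). Id3 (0.31 ± 0.09 SE, adjusted p = 0.0600) and Ccn5 (0.19 ± 0.09 SE, adjusted p = 0.287), the most abundant of those that did not pass, were both called higher without PBS replicate 3 (0.00380 and 0.0198).

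Most known targets of PPARγ and C/EBPα in fat cells fell. Of 27 tested, 19 fell and 1 rose, while 3.22% of all tested genes were called lower and 4.20% higher. The median log2 fold change of the targets was -1.30, against -0.86 for Pparg and -0.70 for Cebpa. Scd1, a desaturase of fatty acids, fell from 1686, 1613 and 1471 CPM to 579, 574 and 627 CPM (-1.42 ± 0.09 SE, adjusted p = 3.52e-07). The other 5 with the lowest p, Cd36, Aqp7, Plin1, Plin4 and Adipoq, had log2 fold changes from -1.61 to -2.90. The one that rose was Angptl4, an inhibitor of lipoprotein lipase, from 153, 167 and 147 CPM to 346, 387 and 364 CPM (1.23 ± 0.09 SE, adjusted p = 1.17e-06). Gpam, an enzyme of glycerolipid synthesis (-0.07 ± 0.08 SE), and Fasn, the fatty acid synthase (-0.14 ± 0.16 SE), did not pass, though Fasn was called lower without PBS replicate 3 (adjusted p = 0.0304). These targets were chosen with earlier results of these data known, so their count is no independent evidence.

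**Figure D4:**
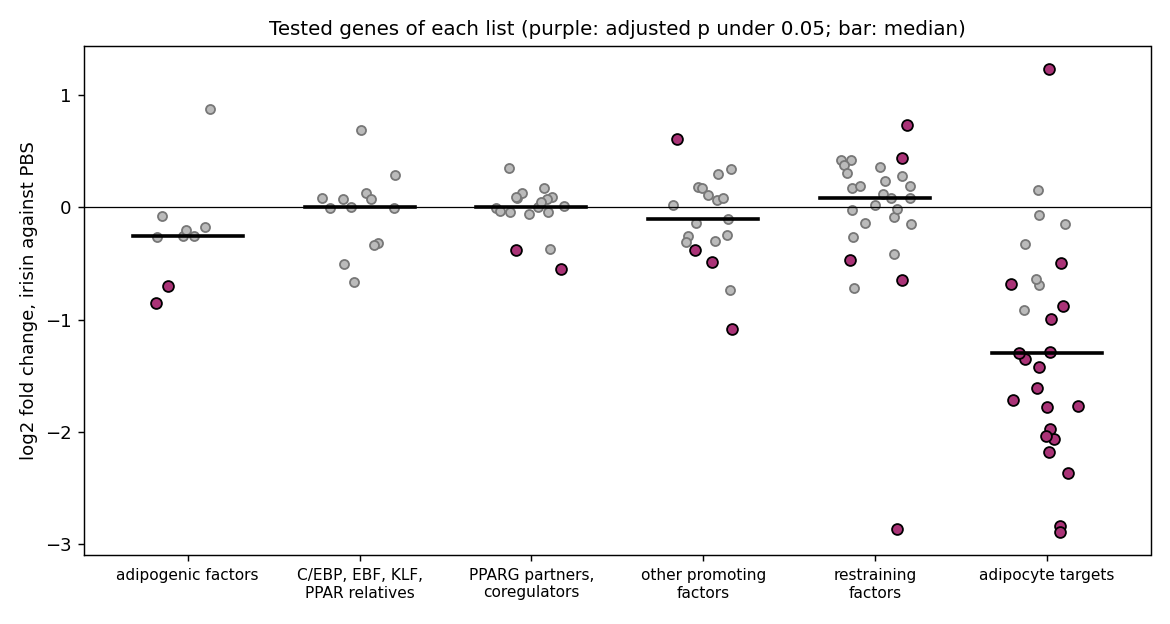
Log2 fold change of irisin against PBS (vertical axis) for each tested gene of 6 lists, with horizontal bars at the medians. The adipocyte targets have a median of -1.30 with Angptl4 alone above the threshold upward, while the relatives, partners and other regulators have medians between -0.10 and 0.09.

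Markers of mature fat cells were mostly lower with irisin, as were Pparg and Cebpa among the factors. Of the 9 markers 7 also stand among the targets. Of 8 tested 7 fell and 0 rose, against 3.22% of all tested genes called lower. Their summed level was 1119, 660 and 710 CPM in PBS and 150, 205 and 185 CPM in irisin. Most of that sum was Car3, at 840, 487 and 528 CPM in PBS and 95.7, 155 and 139 CPM in irisin. Lep was at 0 counts in all 6 libraries. PBS replicate 1 had the highest marker sum, while PBS replicate 3 had the highest Pparg. The part of these markers in the falls of Pparg and Cebpa was not tested. The sum over 12 stromal markers, mostly from Col3a1 and Col1a1, was higher in irisin. It was 40300, 38470 and 33190 CPM in PBS and 45150, 49680 and 48910 CPM in irisin, with no overlap. The markers did not move as a group, with a median log2 fold change of 0.08. Pdgfra and Col1a1 rose, while Cd34, Thy1 and Lum fell. Leukocyte genes summed to 71.2 to 92.5 CPM, mostly from Csf1r, with Ptprc at 0 to 3 counts and C1qa and Cd3e at 0. Some macrophage genes had reads, with Cd14 at 28 to 56 counts. Lyz2 had 45, 40 and 63 counts in PBS and 43, 22 and 111 in irisin. Adgre1 had 0, 0 and 8 counts in PBS and 0, 0 and 10 in irisin. Endothelial genes summed to 35.7, 38.2 and 31.1 CPM in PBS and 27.0, 19.9 and 25.9 CPM in irisin, nearly all from Tek. Tek, the only one tested, fell, with Pecam1 at 0 to 6 and Cdh5 at 0 to 5 counts. Vwf went the other way at few counts, with 0, 2 and 0 in PBS and 5, 8 and 8 in irisin. Mesothelial and epithelial genes summed to only 0.387 to 8.80 CPM. Contractile mural genes, mostly Acta2, summed to 2470, 2279 and 2190 CPM in PBS and 1843, 2068 and 1808 CPM in irisin, again with no overlap. Of 6 tested, Des and Cspg4 fell and 0 rose. The part of the stromal, leukocyte, endothelial and mural genes in the results above was not tested.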

How the data were processed

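The authors deposited whole-number read counts per gene symbol for 6 libraries in 1 table, with no normalization. Per the submitters' processing notes, the tools were STAR 2.7.3a and featureCounts on mm10. The sources used here do not give the annotation, the strand setting or the rule for multi-mapped reads. Per the labels' protocols, part of the lysate of each well was sequenced by the Immunological Genome Project. Sample titles gave groups and replicates.

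From these counts, edgeR 4.0.16 in R 4.3.3 computed TMM factors, filtered low counts (filterByExpr, minimum 10, which left 12296 of 31436 detected genes) and tested irisin against PBS by robust quasi-likelihood without covariates. The script was first tested on simulated data. The SE is the fold change divided by the root of F. CPM divides counts by the TMM-scaled library size. Lists are described by counts and medians. Positions and exon lengths came from GENCODE M21 by symbol (96.4% of symbols matched).

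Members and lists were chosen with earlier results of these data known. Named genes were all 10 factors, in each list up to 6 called genes of lowest p per direction and the 2 most abundant that did not pass, and for each tested factor the 3 genes of highest Pearson r (log2 of CPM plus 0.5, mean of at least 10 CPM). Alternatives were RLE, upper quartile and total-count scaling, DESeq2 1.42.0, limma-voom in limma 3.58.1 with sample quality weights, non-robust dispersion, no filter or a minimum of 50, removal of mitochondrial and ribosomal protein genes, a replicate block, omission of each library, a threshold of 0.10 and glmTreat at 1.2-fold. Omission of 2 libraries at once was chosen after seeing the data.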

Additional observations from a re-analysis of the deposited data

How the results depend on the processing

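Pparg and Cebpa were called as lower under each of 18 alternatives, at log2 fold changes of -0.94 to -0.77 and -0.78 to -0.64 (adjusted p at most 0.00292 and 0.0229). No factor was called as higher in any. The count of factors called as lower was 2, with 2 to 3 when each library was left out, 4 under limma-voom, and 4 when PBS replicate 3 was omitted along with irisin replicate 1. Over all genes, 912 were called, 516 higher and 396 lower. Leaving out each library gave 589 to 1290 called, 336 to 705 higher and 238 to 585 lower. The test against a 1.2-fold change gave 528, 306 and 222, and omitting those 2 libraries 1680, 892 and 788. Lower genes numbered 602 with total counts alone, under which all genes had a median log2 fold change of -0.09, and 623 with limma-voom. The cause of these shifts was not tested. Signs turned, with no call, for Klf4 without PBS replicate 2, Klf15 without PBS replicate 1, Fasn without PBS replicate 2, and Kmt2d with total counts (-0.0344) and without both libraries (-0.0228). With each library left out, the log2 fold change ran from -0.16 to 0.0015 for Klf4, from -0.36 to 0.19 for Klf15 and from -0.32 to 0.0062 for Fasn. With a count minimum of 50 Klf15 was not tested.

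The labels tie the replicate numbers to no shared source, so the libraries were not treated as paired. Deviations of same-numbered libraries correlated at -0.238, 0.164 and -0.177. The highest value was 0.36, between PBS replicate 3 and irisin replicate 1, which both stood apart on component 2. With 3 libraries per group these values cannot decide whether a number marks a shared source. With the replicate block 691 genes were called, 422 higher and 269 lower, and 2 factors as lower (Pparg adjusted p = 0.00124, Cebpa adjusted p = 0.0122) and 0 as higher. PBS replicate 2 and irisin replicate 2 each correlated best with the other, and the other 4 libraries did not correlate best with their own number. Rxra, Nfia and Trib3 lost their calls with the block (adjusted p = 0.137, 0.0647 and 0.112). No other factor changed its call, nor did any other gene named from the lists of relatives, partners, regulators and targets.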

Other observations

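The share of protein-coding genes that passed the filter on low counts was set against the G and C content of the longest transcript, a description chosen after values were seen. Among genes with 2 or more exons, 44.7% of those under 45% G and C passed, 58.3% between 45% and 50%, 60.9% between 50% and 55%, 60.7% between 55% and 60%, 51.1% between 60% and 65%, and 22.7% of 75 genes at 65% or more. The share was thus highest in the middle of the range. Among genes with 1 exon the shares in the same order were 33.0%, 35.2%, 31.6%, 30.2%, 12.5% and 5.41%. Cebpa, at 62.6% G and C and 1 exon in its longest transcript, was among the 13 of 104 that passed in its class. These shares are described over genes in this table and were not compared with another protocol.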
